A study of Mus musculus with 3 samples.

Results

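Thymocytes of mice with 1 mutated copy of Zbtb16, the gene that encodes the transcription factor PLZF, were set against those of wild-type mice on a pair of Affymetrix Mouse Gene 1.0 ST arrays. Of the 3 arrays of the series, 1 was from PLZF+/lu and 1 from PLZF+/+ cells, and these 2 are compared here over all 24800 probe sets. The array of PLZFlu/lu cells is quoted only to place a value. The members of the comparison are therefore arrays chosen by their labelled genotype, and no measured value was used to choose them.

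Every array held RNA of thymic γδ NKT cells from female C57Bl/6 mice aged 3 to 4 weeks. According to the methods of the study the mice lacked Rag1 and carried a Vγ1Vδ6.4 T cell receptor (TCR) transgene in all genotypes, wild-type controls included, and CD4+CD8- thymocytes were sorted with a repeat sort into the RNA reagent. Luxoid (lu) is a point mutation in the PLZF gene, so its transcript can still hybridise and the level of Zbtb16 RNA does not count intact alleles. The sources used here do not give the number of mice behind each array. With 1 array per genotype, a difference of genotype cannot be told apart from one of animal, sort or hybridisation. No p-value can be given, and the 2-fold and 1.5-fold limits used below are rules of size.

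PLZF is a BTB zinc finger protein that both natural killer T (NKT) cells and the γδ T cells with the Vγ1Vδ6 receptor switch on in the thymus. It is known for the effector program of these cells, in which they leave the thymus with the traits of memory cells and release cytokines without a first encounter with antigen. The comparison asks which genes already differ when 1 of the alleles is mutated.

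Zbtb16 had an intensity of 8796 on the PLZF+/+ array and 6143 on the PLZF+/lu array, so that PLZF+/lu had 69.8% of the wild-type value. On the PLZFlu/lu array it was at 2890. The coreceptor gene Cd4 was at 6401 in PLZF+/+ and 6208 in PLZF+/lu, and the TCR signalling chain gene Cd3e at 10550 and 11334. Of 9 markers of T cells, 8 were measured and all 8 lay above background. Of markers of other cells, the 7 macrophage genes had a summed intensity of 829 in PLZF+/+ and 816 in PLZF+/lu (2 of them above background), the 4 erythroid genes one of 374 on each array (1 above) and the 6 NK genes 450 and 458 (1 above). The 7 B cell markers summed to 2049 and 1832, most of it from Cd79b at 1658 and 1440, and 2 of them were above background. Those of thymic epithelium (8 genes, 5 above) summed to 1948 and 2042, and those of stroma and endothelium (8 genes, 6 above) to 3832 and 3809. Genes used as markers of αβ and regulatory T cells were brighter and differed more, though mice without Rag1 should lack these cells. The 6 measured genes, all above background, summed to 4337 in PLZF+/+ and 3386 in PLZF+/lu, with 4 lower, 2 higher and a median of -0.24. Most of that difference came from Ikzf2, at 1708 and 1192, and Nrp1, at 656 and 397, while Foxp3, the defining factor of regulatory T cells, was at 189 and 191. RNA of the CD8 chains, whose protein the CD4+CD8- sort selects against, was above background on both arrays and higher in PLZF+/lu. Cd8a was at 369 in PLZF+/+ and 519 in PLZF+/lu, with 601 in PLZFlu/lu. Cd8b1 was at 1290, 2263 and 2958 in the same order, or 1.75-fold higher in PLZF+/lu. The paper names Cd8b1 among the genes that are lower when PLZF is present. Both CD8 genes belong to a list of CD4+CD8+ thymocyte markers, of which 23 were measured and 20 were above background. Of these markers 9 were higher, 9 lower and 5 equal in PLZF+/lu, with a median of 0.00 and Cd8b1 alone past 1.5-fold. The list summed to 32924 and 33643, and its members Ptcra, the pre-TCR chain, and Dntt, which adds bases at receptor joints, were at 167 on both arrays and at 162 and 157. The part of these markers in the results below was not tested. Here and below, a larger share of cells that use a gene and more of its RNA per cell cannot be told apart.

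The values are probe set intensities on a linear scale, and differences are given as log2 of PLZF+/lu minus log2 of PLZF+/+ or as folds. A level of 108, the 95th percentile of 1033 olfactory receptor probe sets, genes of the nose, stands for background. A fold against a value below it is given as a lower bound taken against that level. Of the 24800 probe sets, 13333 (53.8%) had exactly the same deposited value in PLZF+/lu and PLZF+/+, 5484 were higher in PLZF+/lu and 5983 lower. The median difference was 0.00 and the SD over probe sets 0.16, and over the olfactory receptors the SD was 0.08.

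Fewer probe sets were higher than lower past 2-fold in PLZF+/lu. The limit was passed by 58 (0.234% of all), of which 41 (0.165%) were lower and 17 (0.0685%) higher. None of the olfactory receptor probe sets passed it. Exactly 1 gene is annotated for 33 of the 58, of which 27 were lower and 6 higher. Several genes are annotated for 15 and no gene for 10. When each of the 19518 measured genes was represented by its brightest probe set, 26 (0.133%) passed 2-fold, 20 lower (0.102%) and 6 higher (0.0307%). At the 1.5-fold limit there were 285 probe sets (1.15%), with 172 lower (0.694%) and 113 higher (0.456%), and 155 genes (0.794%), with 106 lower (0.543%) and 49 higher (0.251%). Genes that differed to any degree were 4606 lower (23.6%) and 4135 higher (21.2%). These shares are the background for the counts of gene groups that follow. Equal values were fewer among bright genes, and on all 3 arrays 45.1% of probe sets had 1 value. How the authors summarised the probes is not stated in the sources used here, so whether equal values are measured or made in processing cannot be told, and the median and SD above rest on them. Of 11958 genes brighter than background on either of the compared arrays, 42.1% were equal, 36.2% lower and 21.7% higher, and of 6199 genes above 512, 31.0% were equal, 49.1% lower and 19.9% higher. The median was 0.00 in both sets. For lists of bright genes these shares are the nearer background.

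**Figure D1:**
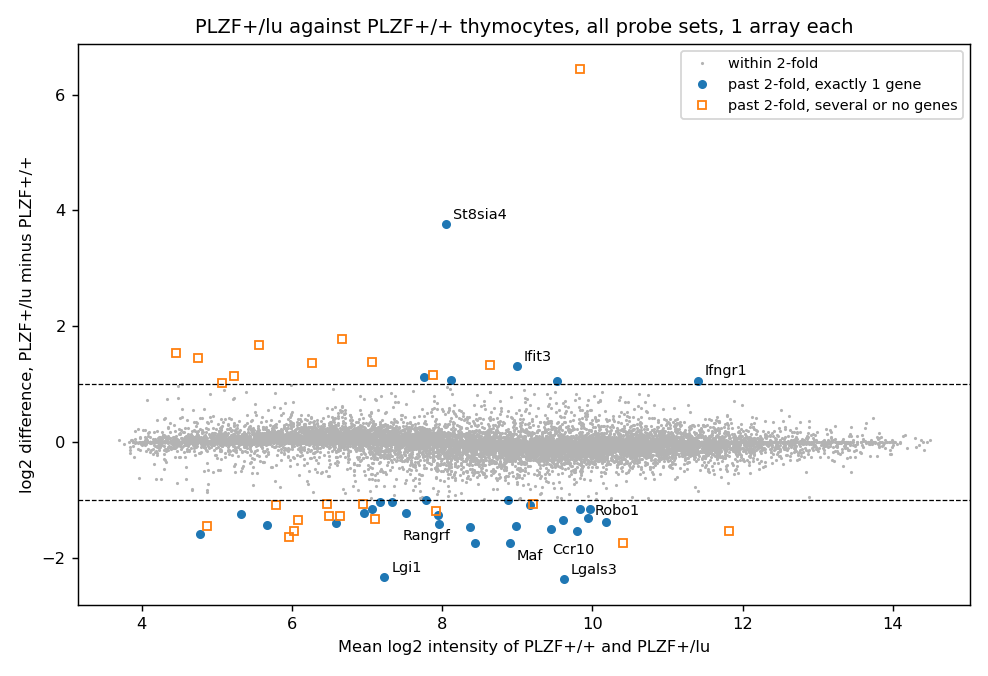
Log2 difference in intensity between PLZF+/lu and PLZF+/+ (vertical axis) against the mean log2 intensity of both arrays (horizontal axis) for 24800 probe sets, 1 array per genotype. Dashed lines mark 2-fold, filled circles the 33 probe sets past it with exactly 1 gene and open squares the 15 with several and the 10 with no genes; the open square at the top is a set of several genes, and St8sia4 is the highest gene with its own probe set.

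Among the single-gene probe sets past 2-fold, 30 were brighter than background on at least 1 of the 2 arrays, and all 30 are described here, 24 lower and 6 higher. The other 3 (for Trdn, Srsy and Tmed2) were dimmer than background on both. Of the 30 genes, 23 are in a RefSeq table of promoters (build GRCm38.p6). Promoters are shown for the lower gene with the largest fold, Lgals3, and for the genes with the highest folds in the other direction, St8sia4 and Ifit3. Each is the 250 bases before the annotated start, read 5′ to 3′ on the gene's strand, with motif matches in capitals. The motifs searched on both strands were the E-box CACCTG, the half-site AGGTCA of ROR nuclear receptors, the Maf half-site TGCTGA and the core GAAANNGAAA of the interferon-stimulated response element. The last of these was added after the values were seen. Of 27025 promoters of this length, 17.1% hold the E-box, 13.8% the ROR half-site, 15.8% the Maf half-site and 3.04% the interferon core, the last being the least frequent. No match overlaps another in the windows shown.
Lgals3, chr14:47373610-47373859, plus strand, E-box in capitals: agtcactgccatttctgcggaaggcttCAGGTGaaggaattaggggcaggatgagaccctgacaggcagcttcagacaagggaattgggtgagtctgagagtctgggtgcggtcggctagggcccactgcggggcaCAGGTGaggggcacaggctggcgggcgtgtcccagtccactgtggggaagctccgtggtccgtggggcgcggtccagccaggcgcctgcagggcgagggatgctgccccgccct
St8sia4, chr1:95667595-95667844, minus strand, Maf half-site in capitals: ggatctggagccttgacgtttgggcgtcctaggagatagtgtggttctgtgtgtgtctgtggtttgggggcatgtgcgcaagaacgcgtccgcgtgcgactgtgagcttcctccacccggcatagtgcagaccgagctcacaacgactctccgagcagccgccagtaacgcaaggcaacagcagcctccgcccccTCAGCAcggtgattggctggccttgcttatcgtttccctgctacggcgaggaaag
Ifit3, chr19:34583279-34583528, plus strand, interferon core in capitals: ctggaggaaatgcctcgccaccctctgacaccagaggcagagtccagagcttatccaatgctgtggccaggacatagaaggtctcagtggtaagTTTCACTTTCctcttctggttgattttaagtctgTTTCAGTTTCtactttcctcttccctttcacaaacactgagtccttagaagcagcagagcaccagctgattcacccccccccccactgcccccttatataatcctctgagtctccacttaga
In Lgals3 the E-box letters stand at positions -223 and -114 from the start, in St8sia4 the Maf half-site at -55, and in Ifit3 the interferon core at -156 and -122. These are matches of letters only. The promoter of Lgi1, the gene with the next largest difference after Lgals3 among the lower ones, holds none of the 4 motifs.

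Lgals3, which encodes the sugar-binding lectin galectin-3, was at 1787 in PLZF+/+ against 346 in PLZF+/lu, with 235 in PLZFlu/lu. It was 5.16-fold lower in PLZF+/lu, with the low value well above background. It belongs to a list of 34 galectin, S100, annexin and effector-memory genes, proteins that mark T cells which have taken on a memory-like state. Of its 32 measured members, 23 (71.9%) were lower in PLZF+/lu, 6 higher and 3 equal, with a median difference of -0.11 against 0.00 over all genes. Of genes above background 36.2% were lower, and of those above 512, 49.1%. Past 1.5-fold there were 6 members of the list lower and none higher. S100a4, a calcium-binding protein of motile cells, was at 839 in PLZF+/+ and 393 in PLZF+/lu (2.13-fold lower), and its neighbour in the family S100a6 at 565 and 322 (1.76-fold lower). The actin-capping protein gene Capg was at 1026 and 531, just inside the 2-fold limit at 1.93-fold. Lgals1, which encodes galectin-1, was at 3453 and 2010 (1.72-fold lower). Anxa2, an annexin that binds membranes in the presence of calcium, was at 865 in PLZF+/+ and 534 in PLZF+/lu but at 805 in PLZFlu/lu, so that the PLZF+/lu array alone was low. The members higher in PLZF+/lu differed little, with S100a9 highest at 115 and 135. Quantile normalization left 23 members lower and 8 higher, and the list median less that of all genes shrank to -0.06. Cyclic loess left 24 lower. Centring on the median, which turned equal values into slightly lower ones, left 27 lower.

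The lymphocyte transcription regulators past 2-fold were Maf and Rora, and both were lower in PLZF+/lu. Maf, the leucine zipper factor c-Maf that drives Il4 in helper T cells, was at 874 in PLZF+/+ against 260 in PLZF+/lu, with 164 in PLZFlu/lu, or 3.36-fold lower with 1 mutated allele. Rora, an orphan nuclear receptor of innate-like lymphocytes, was at 1498, 672 and 281 on the same arrays (2.23-fold lower in PLZF+/lu). For both genes PLZF+/+ was high and the mutant arrays low. Tox2, a nuclear protein of the TOX family, was at 858 in PLZF+/+ and 461 in PLZF+/lu (1.86-fold lower). Zbtb7b, which encodes the CD4 lineage factor ThPOK, was at 335 and 179 (1.87-fold lower). In mice without the TCR transgene, the paper found its RNA not consistently different when PLZFlu/lu NKT cells were set against PLZF+/+ ones. Id2, an inhibitor of E proteins, was at 13326 and 9322 and stayed within 1.5-fold (1.43-fold lower), as did the LIM-domain adaptor Lmo4 at 10656 and 8497. Among 56 measured lymphocyte regulators, 24 (42.9%) were lower in PLZF+/lu, 9 higher and 23 equal, with a median of 0.00. That share lies between the 36.2% of genes above background and the 49.1% of genes above 512. Past 1.5-fold there were 3 regulators lower and 1 higher. Stat4, which relays IL-12 signals to the nucleus, was the higher one, at 787 in PLZF+/+ and 1373 in PLZF+/lu (1.74-fold). In the PLZF family itself, 26 BTB zinc finger genes, 7 were higher and 8 lower, with Zbtb7b lower and Bach2 higher past 1.5-fold. Bach2, a repressor that holds lymphocytes in the naive state, was at 449 in PLZF+/+ against 801 in PLZF+/lu, with 1231 in PLZFlu/lu (1.79-fold higher in PLZF+/lu).

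Of 30 measured chemokine and trafficking receptors, 2 passed the 2-fold limit, and both were lower in PLZF+/lu. Ccr10, a receptor that guides cells to skin and mucosa, was at 1509 in PLZF+/+ against 524 in PLZF+/lu, with 489 in PLZFlu/lu, so that PLZF+/lu lay near the homozygous mutant (2.88-fold lower than wild type). Ccr2, a receptor of inflammatory chemokines, was at 1243, 487 and 216 (2.55-fold lower in PLZF+/lu). Cxcr2 was at 415 in PLZF+/+ and 291 in PLZF+/lu (1.43-fold lower), and Cxcr6, a receptor of NKT cells, at 3827 and 3157 (1.21-fold lower). The sphingosine phosphate receptor gene S1pr1, which lets thymocytes leave the thymus, was higher at 5243 and 6722. The whole list had 9 members lower (30.0%), 8 higher (26.7%) and 13 equal, with a median of 0.00. Of genes above background 36.2% were lower and 21.7% higher.

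Cytokine receptors differed in both directions. Il18r1, the ligand-binding chain of the IL-18 receptor, was at 667 in PLZF+/+ and 333 in PLZF+/lu, at the limit itself with a fold of 2.004, and below 2-fold after quantile or cyclic loess normalization. Ifngr1, the chain that binds IFNγ, was at 1872 in PLZF+/+ against 3906 in PLZF+/lu, with 7152 in PLZFlu/lu, or 2.09-fold higher with 1 mutated allele. Its partner chain gene Ifngr2 was lower, at 1602 in PLZF+/+ and 1135 in PLZF+/lu. Il12rb1, a chain of the IL-12 receptor, was at 1917 and 1451 (1.32-fold lower), while its partner Il12rb2 was at 516 and 500. Irak3, an inhibitor of signalling below IL-1 family receptors, was at 1254 and 799 (1.57-fold lower). Higher values were found for Il6st, the shared chain of the IL-6 family, at 1356 in PLZF+/+ and 1785 in PLZF+/lu, and for Il4ra at 1430 and 1759. Over 57 measured members, 21 (36.8%) were lower, 16 (28.1%) higher and 20 equal. Among all genes above background 36.2% were lower and 21.7% higher, so the split of the list was near that of genes at large.

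Of the genes that the paper names from these arrays, 24 were measured, and 17 were lower in PLZF+/lu, 5 higher and 2 equal, with a median of -0.43. Past 2-fold were Ccr2, Ccr10, Il18r1, Maf and Rora, all lower, and Ifngr1, higher. These genes were picked on the same arrays, and the count is not independent evidence of a direction. Icos, a costimulatory receptor, was at 2733 in PLZF+/+ and 1758 in PLZF+/lu (1.55-fold lower). Cd40lg, the ligand by which T cells help B cells, was at 2313 and 1587 (1.46-fold lower). Cytokine genes of these unstimulated cells stayed within 1.5-fold. Il4 was at 224 and 170, Il13 at 303 and 271, and Tnf at 170 and 124, while Ifng at 91.1 and Il10 at 39.5 were below background and equal on both arrays. No probe set is annotated with Npas2 alone, and no value is given for it. Beyond Icos, no member of 32 measured costimulatory and inhibitory receptors passed 1.5-fold. A list of 15 genes of IL-4-producing NKT cells (NKT2-type), which holds Zbtb16 itself, had 12 members lower (80.0%), 1 higher and 2 equal. Its median was -0.22. Of genes above background 36.2% were lower, and of those above 512, 49.1%. Plac8, at 1448 and 883 (1.64-fold lower), had the largest difference of the NKT2-type list. The receptor gene Il17rb was at 5404 and 4332 and the regulator gene Gata3 at 4297 and 3260. The 19 genes of IFNγ-producing NKT cells (NKT1-type) had 5 members lower, 2 higher and 12 equal, none past 1.5-fold. In the list of 19 genes of IL-17-producing NKT cells (NKT17-type), only Maf and Rora passed 1.5-fold, and both were lower.

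**Figure D2:**
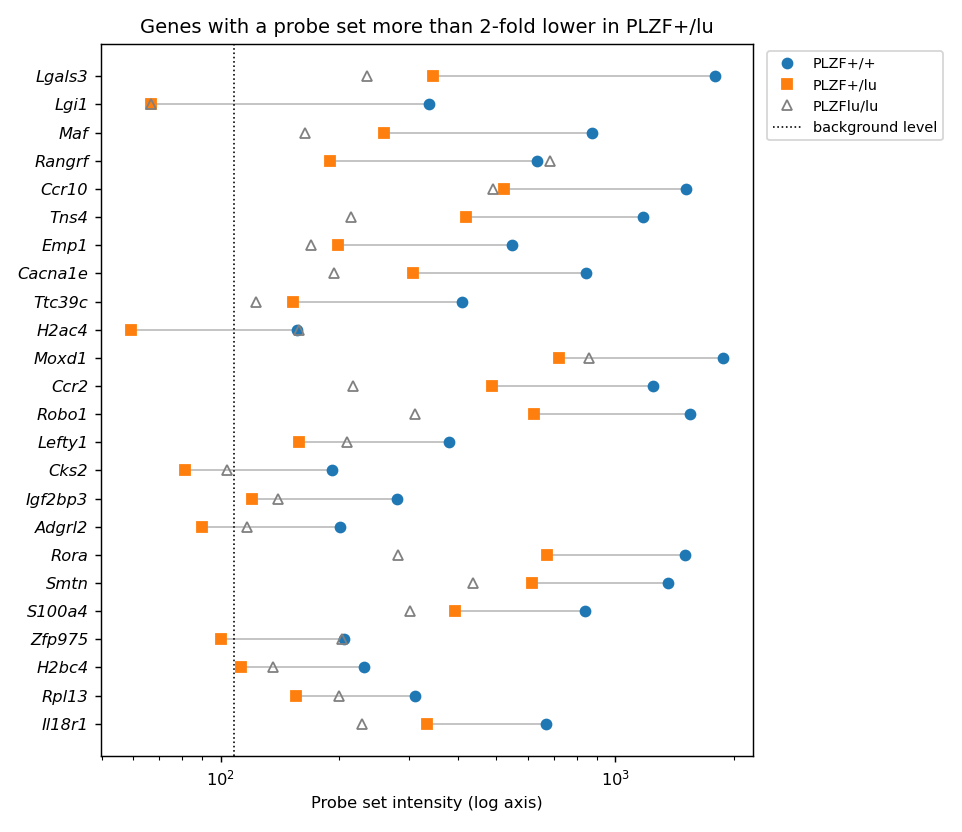
Intensity (horizontal log axis) of the 24 genes with a probe set more than 2-fold lower in PLZF+/lu by deposited values, with 1 array per genotype: circles PLZF+/+, squares PLZF+/lu, triangles PLZFlu/lu, and the dotted line background at 108. The bar joins PLZF+/+ and PLZF+/lu; for Lgals3 it runs from 1787 to 346, and for Rangrf, H2ac4 and Zfp975 the PLZFlu/lu array lies near PLZF+/+. For H2ac4, Cks2, Adgrl2 and Zfp975 the fold against background is below 2. For Rangrf, Rpl13, Cks2 and Adgrl2 another, brighter probe set is within 2-fold.

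Of 50 measured genes of adhesion and guidance, 4 passed 1.5-fold, where 0.794% of all genes did. All 4 were lower in PLZF+/lu. Lgi1, a secreted glycoprotein of synapses, was at 337 in PLZF+/+ and 66.9 on both mutant arrays, which is below background and gives a fold of at least 3.13. Tns4, a tensin that links integrins to the cytoskeleton, was at 1176 in PLZF+/+ against 418 in PLZF+/lu, with 214 in PLZFlu/lu (2.82-fold lower in PLZF+/lu). Robo1, a receptor of Slit guidance cues, was at 1549, 621 and 310 (2.49-fold lower). Each of these genes had its highest value in PLZF+/+. Nrp1, a semaphorin co-receptor, was at 656 in PLZF+/+ and 397 in PLZF+/lu (1.65-fold lower). In all 16 members (32%) were lower, 13 (26%) higher and 21 equal, with a median of 0.00. Of genes above background 36.2% were lower and 21.7% higher, so the split of the list was near that of genes at large. Adgrl2, an adhesion receptor of the latrophilin family, passed 2-fold with 1 of its 8 probe sets, at 201 and 89.6 (at least 1.86-fold lower), and its brightest probe set was at 839 and 493 (1.70-fold lower).

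Several genes outside the lists were lower by more than 2-fold. Emp1, a membrane protein with 4 membrane-spanning segments, was at 546 in PLZF+/+ against 199 in PLZF+/lu, with 170 in PLZFlu/lu (2.75-fold lower in PLZF+/lu). Cacna1e, the pore subunit of a voltage-gated calcium channel of neurons, was at 841, 307 and 194 (2.74-fold). Moxd1, a relative of dopamine beta-hydroxylase, was at 1880, 719 and 859 (2.62-fold). In all 3, PLZF+/lu was nearer to PLZFlu/lu than to PLZF+/+. Smtn, an actin-binding protein of smooth muscle, was at 1362 in PLZF+/+ and 615 in PLZF+/lu (2.22-fold), and Ttc39c, a tetratricopeptide repeat protein, at 408 and 153 (2.67-fold). Lefty1, a secreted inhibitor of Nodal signalling, was at 380 and 158 (2.40-fold). Igf2bp3, which binds the mRNA of the growth factor gene Igf2, was at 279 and 120 (2.33-fold). Igf2 itself was at 1703 in PLZF+/+ against 870 in PLZF+/lu, with 297 in PLZFlu/lu, just short of the limit at 1.96-fold. Of 24 imprinted genes measured by a probe set with exactly 1 gene, Igf2 alone passed 1.5-fold, and 19 were equal on both arrays. Probe sets of several genes count for no list. Among these, the set annotated with both Mir675 and Supt6 was at 6175 in PLZF+/+ against 2133 in PLZF+/lu, with 589 in PLZFlu/lu (2.90-fold lower in PLZF+/lu). Other genes just short of 2-fold were Sdf2l1, a protein of the endoplasmic reticulum, at 1494 and 753 (1.99-fold), and Tnfsf4, which encodes OX40 ligand, at 186 and 94.7 (at least 1.72-fold).

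For some of the 24 lower genes the PLZF+/lu array stood apart from both others, or the probe sets of the gene differed. H2ac4, a histone gene, was at 156 in PLZF+/+ against 59.2 in PLZF+/lu, with 158 in PLZFlu/lu (at least 1.45-fold lower in PLZF+/lu), and the zinc finger gene Zfp975 at 206, 100 and 203 (at least 1.91-fold). In both the PLZF+/lu array was low and the other arrays were alike. Rangrf, a factor that acts on the GTPase Ran, was at 634, 189 and 682 by the probe set past 2-fold. Its brightest probe set went the other way, at 737 in PLZF+/+ and 950 in PLZF+/lu. Cks2, a subunit of cyclin-dependent kinases, was at 191 and 81.5 (at least 1.77-fold lower) by 1 of its 3 probe sets and at 398 and 288 by the brightest. Rpl13, a ribosomal protein gene, passed the limit with 1 of 9 probe sets, at 311 and 155, while its brightest was at 2162 and 1788 (1.21-fold lower). These genes are named because a probe set passed the limit in the deposited values. For H2ac4, Cks2, Adgrl2 and Zfp975 a fold of 2 was not shown, since the lower value is below background, and the gene's own direction is uncertain for Rangrf.

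St8sia4, the polysialyltransferase that adds chains of sialic acid to surface proteins, was at 71.6 in PLZF+/+ against 975 in PLZF+/lu, with 1184 in PLZFlu/lu. Only the wild-type value was below background, and PLZF+/lu was at least 9.04-fold higher. It was the single member past 1.5-fold of 20 measured sialyltransferase genes. The next highest fold was that of St3gal1, which adds sialic acid to O-linked sugars, at 2900 in PLZF+/+ and 3738 in PLZF+/lu. Abcb1a, the drug efflux pump P-glycoprotein, was at 192, 405 and 408 (2.11-fold higher in PLZF+/lu), and its paralog Abcb1b at 119, 213 and 268 (1.79-fold higher). The related pump gene Abcc1 was lower, at 1138 in PLZF+/+ and 739 in PLZF+/lu (1.54-fold). Tmod4, a tropomodulin of muscle thin filaments, was at 147, 321 and 300 (2.19-fold higher), and Carns1, which encodes carnosine synthase, at 515, 1067 and 900 (2.07-fold higher). Both mutant arrays were above PLZF+/+ for each gene of this paragraph other than Abcc1.

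Of 20 measured genes of naive T cells and of thymic exit, 14 (70.0%) were higher in PLZF+/lu, where 21.2% of all genes were, 4 lower and 2 equal, with a median of 0.08, and other scalings left 13 to 16 higher. Bach2 and Klf3 were the 2 past 1.5-fold among the higher members. Klf3, a Krüppel-like repressor, was at 1260 in PLZF+/+ against 1936 in PLZF+/lu, with 2399 in PLZFlu/lu (1.54-fold higher in PLZF+/lu). Foxp1, a forkhead factor of quiescent T cells, was at 2815 and 3680, and Bcl2, a survival protein, at 5403 and 6140. Dapl1 went the other way, at 163 and 104 (at least 1.51-fold lower). Tsc22d3, which glucocorticoids induce in thymocytes, was at 295, 484 and 762 (1.64-fold higher in PLZF+/lu), the single member past 1.5-fold of 18 glucocorticoid-responsive genes. Of 38 TCR signalling genes none passed 1.5-fold. Ubash3a, an inhibitor of TCR signals, was the highest of them at 1404 in PLZF+/+ and 2027 in PLZF+/lu, while its paralog Ubash3b was the lowest at 421 and 294.

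**Figure D3:**
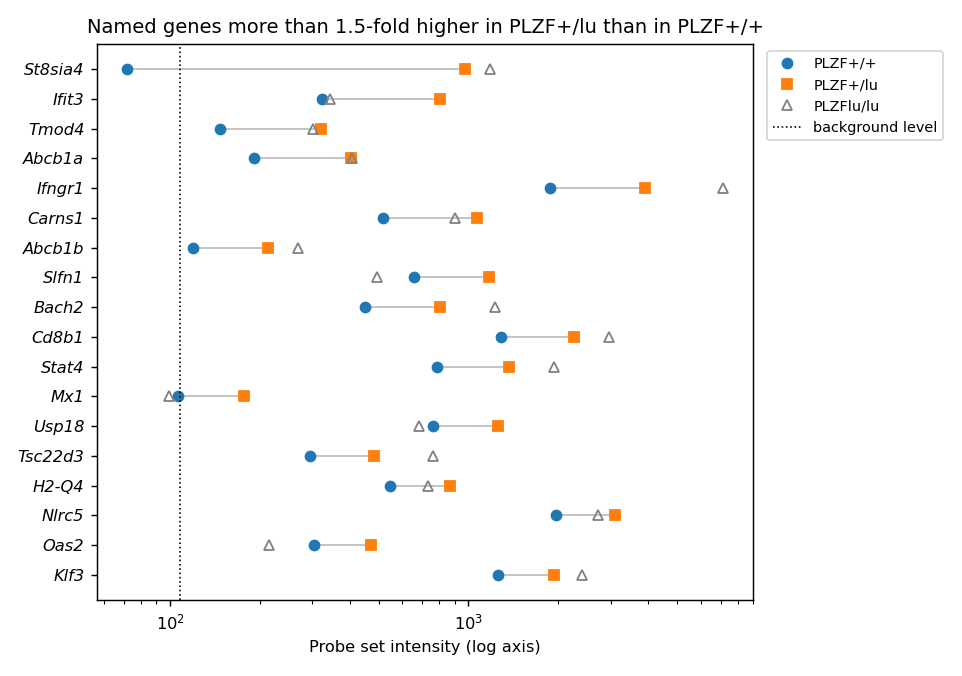
Intensity (horizontal log axis) of the named genes more than 1.5-fold higher in PLZF+/lu, with 1 array per genotype: circles PLZF+/+, squares PLZF+/lu, triangles PLZFlu/lu, and the dotted line background at 108. St8sia4 runs from 71.6 to 975; for Ifit3, Slfn1, Mx1, Usp18 and Oas2 the PLZFlu/lu array lies near or below PLZF+/+.

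Interferon-stimulated genes, which cells switch on when interferons bind their receptors, had 48 measured members, of which 37 (77.1%) were higher in PLZF+/lu, 1 lower and 10 equal. Their median difference was 0.18. Of all genes 21.2% were higher, and of those above background 21.7%. Past 1.5-fold there were 5 higher and none lower. Ifit3, an antiviral protein that binds its relative Ifit1, was at 324 in PLZF+/+ against 804 in PLZF+/lu, with 343 in PLZFlu/lu (2.48-fold higher in PLZF+/lu). The other 4 past 1.5-fold also had their highest value in PLZF+/lu. Slfn1, of the Schlafen family, was at 658, 1174 and 496 (1.79-fold), Usp18, which removes ISG15 from proteins, at 760, 1261 and 686 (1.66-fold), Oas2, an RNA sensor, at 303, 470 and 215 (1.55-fold), and the dim Mx1, an antiviral GTPase, at 106, 177 and 98.9 (at least 1.64-fold). The single lower member was Oas3, at 862 in PLZF+/+ against 649 in PLZF+/lu, with 357 in PLZFlu/lu. The summed intensity of the 48 genes was 47384.5 in PLZF+/+ against 54626 in PLZF+/lu, with 47545 in PLZFlu/lu. Quantile and loess normalization left 46 higher, and centring on the median, which turned equal values into slightly lower ones, left 35 higher and 13 lower. Promoters were at hand for 34 of these genes, and 15 of them (44.1%) hold the interferon core printed for Ifit3, against 3.04% of all promoters. That share describes which genes were put on the list and uses no array value. The promoter of Slfn1 holds no interferon core, only the E-box at -240 and -127. Nlrc5, the activator of MHC class I genes, was at 1970 and 3089 by the brightest of its 19 probe sets (1.57-fold higher), and the class I gene H2-Q4 at 545 and 865 (1.59-fold higher). These were the 2 members past 1.5-fold of 22 MHC and antigen processing genes. Outside the lists, further interferon-inducible genes past 1.5-fold were picked after their values were seen. Ddx60 was at 399 in PLZF+/+ against 748 in PLZF+/lu, with 473 in PLZFlu/lu. Ifi213 was at 540, 980 and 730 in the same order, so both had their highest value in PLZF+/lu. Gbp9, at 1022, 1693 and 2039, and Ifi206, at 696, 1178 and 1215, were instead highest in PLZFlu/lu.

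Of 42 measured proliferation genes, 32 (76.2%) were lower in PLZF+/lu, 1 higher and 9 equal, with a median of -0.20. Of all genes 23.6% were lower, and of those above background 36.2%. Mki67, the antigen of dividing cells, was at 605 in PLZF+/+ against 402 in PLZF+/lu, with 676 in PLZFlu/lu (1.505-fold lower in PLZF+/lu), and the spindle checkpoint kinase gene Bub1 at 146, 87.0 and 146 (at least 1.36-fold). In both the PLZF+/lu array was the low one. By deposited values these 2 passed 1.5-fold, which Mki67 did narrowly and which is not shown for Bub1, whose value in PLZF+/lu is below background. Pcna, the sliding clamp of DNA polymerase, was at 5252, 3646 and 4116, and Rrm2, a subunit of ribonucleotide reductase, at 566, 378 and 492. Cenpa, the centromeric histone, was the member that was higher, at 983 and 1121. Summed over the list the intensity was 34891 in PLZF+/+ against 30413 in PLZF+/lu, with 32313 in PLZFlu/lu. Quantile normalization left 33 members lower and cyclic loess 37. Centring on the median, which turned equal values into slightly lower ones, left 41.

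Replication-dependent histone genes, a list added after values were seen, had 21 of 27 members (77.8%) lower in PLZF+/lu, 1 higher and 5 equal. Their median was -0.23. H2bc4 was at 231 in PLZF+/+ and 113 in PLZF+/lu (2.04-fold lower), H4c3 at 599 and 367 (1.63-fold lower) and H2bc14 at 1759 and 1103 (1.60-fold lower). Histone genes are near-identical in sequence, so their probe sets can share signal and the genes are not separate measurements. Among 60 ribosomal protein genes, also added later, 44 were lower, 7 higher and 9 equal, none past 1.5-fold, with a median of -0.07. Of all genes above background 36.2% were lower, and of those above 512, 49.1%. These shares are the background for each list of this paragraph. Of 29 genes of cholesterol and fatty acid synthesis none was higher and 20 (69.0%) were lower by less than 1.5-fold, with a median of -0.09. Idi1, an enzyme of the isoprenoid pathway, had the largest difference of that list, at 372 and 257, and Msmo1, of the sterol pathway, was at 598 and 432. With quantile or loess normalization 5 of the 29 turned slightly higher. Among 18 glycolysis genes 11 (61.1%) were lower and 4 higher, and the aldolase gene Aldoc, at 366 and 204 (1.79-fold lower), was the member past 1.5-fold.

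**Figure D4:**
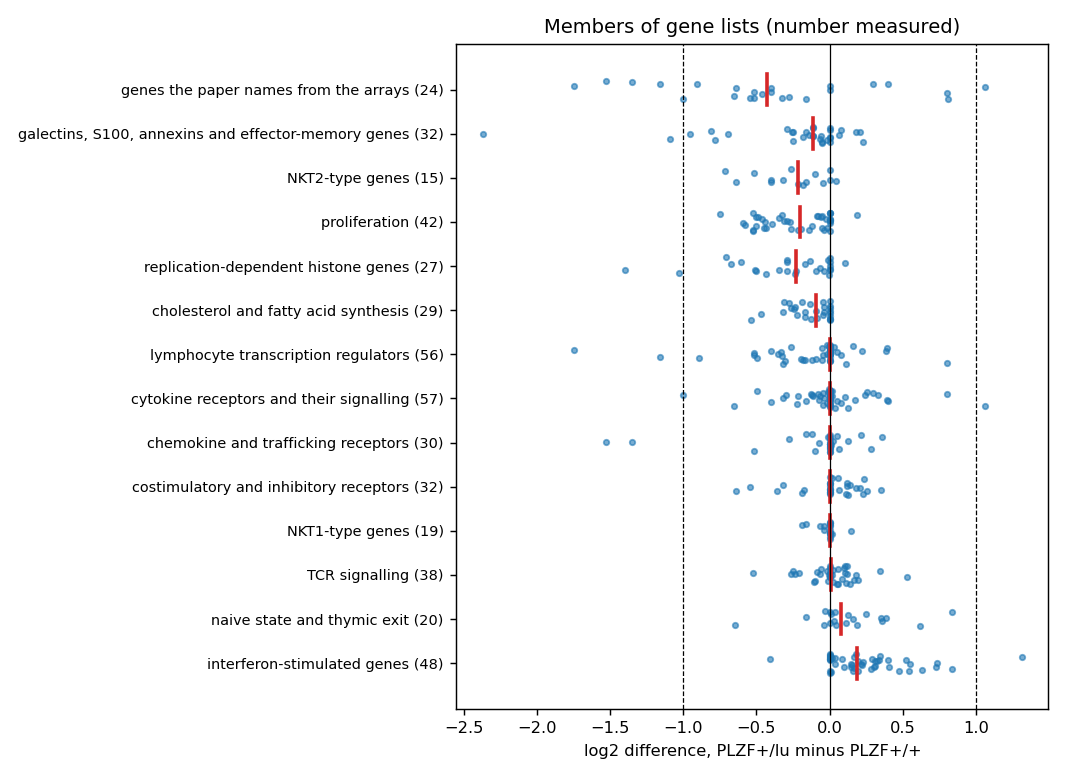
Log2 difference between PLZF+/lu and PLZF+/+ (horizontal axis) for the measured members of 14 gene lists, 1 point per gene, with the number measured in brackets. Red bars are medians, from -0.43 for the genes the paper names to 0.18 for interferon-stimulated genes, and dashed lines mark 2-fold; vertical scatter within a list has no meaning.

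**Figure D5:**
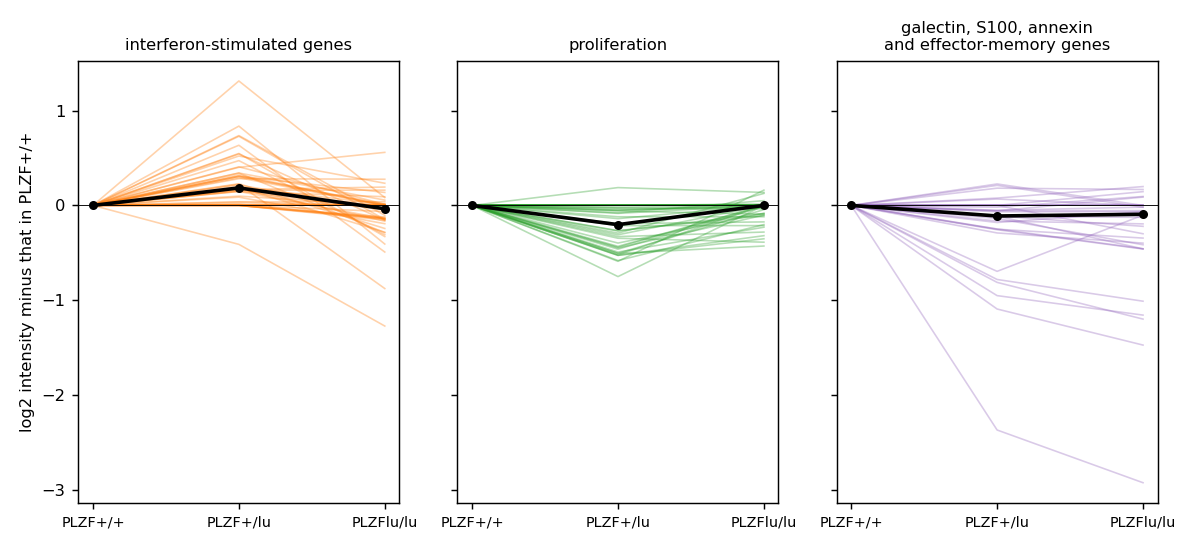
Log2 intensity minus that in PLZF+/+ (vertical axis) on the 3 arrays, 1 line per gene, for interferon-stimulated, proliferation and effector-memory genes, with the median in black. The median of the first list is highest and that of the second lowest on the PLZF+/lu array.

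Immediate early and heat shock genes respond to the handling of cells. Of 28 that were measured 14 (50.0%) were lower in PLZF+/lu, 7 higher and 7 equal, with a median of -0.01. Among genes above background 36.2% were lower, and among those above 512, 49.1%. Hsph1, a heat shock protein, was at 1127 in PLZF+/+ against 606 in PLZF+/lu, with 591 in PLZFlu/lu (1.86-fold lower in PLZF+/lu), and Dusp5, a phosphatase of ERK, at 664, 431 and 373 (1.54-fold lower). Of 18 measured genes of the BCL2 family 4 were lower, 4 higher and 10 equal, and the pro-apoptotic Bmf passed 1.5-fold, at 351, 208 and 300 (1.69-fold lower). Neither the NK receptor and cytotoxicity list (36 measured), the SLAM receptor list (12) nor the list of immature CD4-CD8- thymocytes (17) held a gene past 1.5-fold.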

How the data were processed

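RNA of double-sorted CD4+CD8- thymocytes was hybridised to 1 array per genotype. The scans were processed by the authors in GenePattern, and the values they deposited are linear intensities of probe sets, without the normalization controls. According to the submitters' processing notes the genome build was mm 8. The sources used here do not say how background was corrected, probes summarised and arrays scaled. The 3 value columns were matched to samples by name, and 0 columns stayed unmatched. The deposited intensities (median 160.0 for PLZF+/+, 161.8 for PLZF+/lu, and 159.7 for PLZFlu/lu) were used without further scaling.

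Genes were taken from the platform annotation, which lists exactly 1 gene for 21065 probe sets, several for 1187 and none for 2548. Gene identifiers gave a current symbol for 20983. The 874 genes with several probe sets are given by the probe set of highest mean on the log2 scale. No test was run. Equal means the same deposited value. The named genes are the single-gene probe sets past 2-fold and above background, members of lists past 1.5-fold and above background (at most 6 per list, by the size of the difference), and the genes the paper names. Gene models without a usual symbol and antigen receptor segments were counted, not named. Further genes are given as examples of a list. The comparison, lists, rules and motifs were chosen with earlier results of these data known.

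The alternatives were quantile normalization, cyclic loess, centring on the median, 32 added to each intensity, no dim probe sets, exactly 1 gene, 1 probe set per gene, the mean over a gene's probe sets, and limits of 1.5-fold and 3-fold. Counting was tested on simulated data. The tools were R 4.3.3 with limma 3.58.1, and Python 3.11.15 with pandas 2.3.3, numpy 2.4.6 and matplotlib 3.10.9.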

Additional observations from a re-analysis of the deposited data

How the results depend on the processing

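No paired analysis was possible because each genotype has 1 array and the labels give no replicate numbers, and for the same reason no replicate could be left out. The count of 58 probe sets past 2-fold (17 higher and 41 lower in PLZF+/lu) became 34 (9 and 25) with 32 added to each intensity, 33 (6 and 27) where exactly 1 gene was annotated, and 26 (6 and 20) when each gene had 1 probe set. It was 285 (113 and 172) at 1.5-fold and 10 (4 and 6) at 3-fold. Quantile normalization gave 56, centring on the median 59, cyclic loess 57 and leaving out dim probe sets 47. The lower share was 70.7% as deposited, 81.8% with exactly 1 gene, 60.4% at 1.5-fold and 60.0% at 3-fold, and 69.6% to 76.9% under the other settings. All 30 named genes past 2-fold kept their direction under quantile normalization, loess, centring, 32 added and the mean over a gene's probe sets. Adding 32 cannot change a direction, and the scalings moved these differences too little to reverse one past 2-fold. Only the mean over probe sets could have done so, for genes with several of them. With 32 added, 8 were below 2-fold (Abcb1a, Adgrl2, Cks2, H2bc4, Il18r1, Rpl13, Tmod4 and Zfp975), as were Il18r1 and Rpl13 with quantile normalization and Il18r1 with loess. The mean over a gene's probe sets took 4 below 2-fold, to log2 differences of -0.47 for Rangrf, -0.69 for Cks2, -0.37 for Adgrl2 and -0.12 for Rpl13. The number of arrays limits the precision of every value. Signals below the background level of 108 give bounds only.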

Other observations

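The genes of this paragraph were chosen after their values were seen and belong to no list. Enzymes of detoxification were among those past 1.5-fold lower in PLZF+/lu. The alcohol dehydrogenase gene Adh1 was at 4574 in PLZF+/+ against 2806 in PLZF+/lu, with 2016 in PLZFlu/lu. The glutathione transferase genes Gsto1 (950, 547 and 253 in the same order) and Gstp1 (4128, 2727 and 2547), the aldehyde dehydrogenase gene Aldh2 (783, 507 and 506) and the glutaredoxin gene Glrx (1103, 672 and 619) also had their highest value in PLZF+/+. Receptors and regulators of lymphocytes were among those past 1.5-fold higher. The orphan receptor gene Gpr171 was at 531, 904 and 1445, the lysophospholipid receptor gene P2ry10 at 778, 1214 and 1545, and Rgs1, which damps chemokine receptor signals, at 678, 1127 and 1305. Each of these had its lowest value in PLZF+/+.

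Probe sets without a gene of their own are given as values. The largest difference between PLZF+/lu and PLZF+/+ on the arrays was that of a probe set annotated with 6 genes or gene models, at 98.7 in PLZF+/+ against 8529 in PLZF+/lu, with 148 in PLZFlu/lu, so that the PLZF+/lu array was at least 79.0-fold above wild type and far above the homozygous mutant too. A probe set annotated with both Mir675 and Supt6 was at 6175, 2133 and 589 in the same order of arrays. A probe set annotated with 15 histone genes was at 2485, 746 and 432.

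The share of probe sets with exactly equal values in PLZF+/+ and PLZF+/lu was 76.6% between 32 and 64 in mean intensity and 26.0% between 2048 and 4096. On all 3 arrays 11173 probe sets had 1 value.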
